A study of Mus musculus with 6 samples.

Results

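The mitochondrial carriers of the SLC25 family were described in macrophages given interleukin-4 (IL-4), a type 2 cytokine known for alternative macrophage activation, and in macrophages left without it. The carriers were taken by symbol: every gene of the deposited table named Slc25a followed by a number, with Slc25a20 set aside. This gave 46 of 25124 genes. Of these, 34 reached 1 TPM (the deposited transcript level, scaled for transcript length and sequencing depth) in 3 or more of the 6 libraries and could be tested. Slc25a42 did so in 4 libraries and the other 33 in all 6.

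SLC25 proteins are a family of membrane transporters built from repeats of the same membrane-spanning unit, and nearly all sit in the inner mitochondrial membrane. That membrane is closed to most charged solutes, so adenine nucleotides, phosphate, carboxylates, amino acids, cofactors, glutathione and iron cross it through these carriers. The label "mitochondrial" does not hold for every member, since Slc25a17 is known as a peroxisomal carrier and Slc25a46 as a protein of the outer mitochondrial membrane. In macrophages the citrate and malate-aspartate carriers are known as links between the mitochondrial matrix and cytosolic metabolism.

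The cells were bone marrow-derived macrophages (BMDM) from wild type mice of strain C57BL/6, 8 weeks old, grown from marrow for 7 days in 20 ng/ml macrophage colony-stimulating factor (M-CSF). M2 cells then received 10 ng/ml IL-4 with 20 ng/ml M-CSF, and M0 cells 20 ng/ml M-CSF alone, and RNA was taken after 4 h. Polyadenylated RNA was sequenced in 3 M2 and 3 M0 libraries. The labels do not say whether replicates came from separate animals or cultures, so p-values measure the spread between these libraries, which may be technical.

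The libraries held 16913185 to 19019896 reads in genes, recovered from the deposited TPM values. M0 replicate 2 stood apart: its scatter against the other M0 libraries was 9.52 and 10.7 (chi-square per degree of freedom, where pure counting error gives about 1), while M0 replicates 1 and 3 gave 2.31 and M2 pairs 1.54 to 1.73. All 8 macrophage markers were expressed. By the test described below on the deposited TPM, 3 of them rose and 4 fell. Fcgr1 fell most, at a mean of 20.6 TPM in M2 and 128 TPM in M0 cells, then Cd14, at 65.4 TPM in M2 and 158 TPM in M0 cells. All 5 IL-4 response markers rose, with summed levels of 9275 to 9656 TPM in M2 and 197 to 241 TPM in M0 libraries. No read was found for 5 of 8 erythroid markers, among them the 4 globin genes; the summed level of all 8 was 1.09 to 1.45 TPM in M2 and 0.657 to 1.24 TPM in M0 libraries. Col1a1 and Col1a2 were 2 of 5 fibroblast markers tested and both fell, with a summed level for the list of 6.51 to 7.02 TPM in M2 and 8.53 to 9.21 TPM in M0 libraries. The 4 endothelial markers summed to 10.3 to 10.8 TPM in M2 and 1.13 to 1.26 TPM in M0 libraries, nearly all of the M2 sum from Pecam1. Cdh5 was lower in every M2 library, at 0.086 to 0.151 TPM in M2 and 0.704 to 0.765 TPM in M0 libraries, and Tie1 and Emcn were at or near 0. The 4 dendritic cell markers, none of them tested, summed to 1.08 to 1.33 TPM in M2 and 0.292 to 0.551 TPM in M0 libraries, with Zbtb46 higher in every M2 library, at a mean of 1.06 TPM in M2 and 0.077 TPM in M0 cells. The part of such cells in the values below was not tested, and in bulk RNA fewer cells of a type and less RNA per cell cannot be told apart.

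Levels spanned more than 2 orders of magnitude among the tested carriers. The summed level of all 46 carriers was 1187, 1200.3 and 1191 TPM in M2 libraries, against 1310, 1294 and 1305 TPM in M0 libraries. The groups did not overlap, and the sum was lower in every M2 library in the deposited TPM. After each library was divided by its median ratio to the others (median scaling), this turned: the sum was 1260, 1271 and 1260 in M2 libraries, against 1246, 1185 and 1245 in M0 libraries, higher in every M2 library. As a share of the deposited TPM, carriers took 0.219% to 0.221% in M2 and 0.236% to 0.237% in M0 libraries. The 3 most abundant, Slc25a3, Slc25a5 and Slc25a4, made up 53.8% to 54.0% of the carrier sum in M2 and 51.3% to 51.9% in M0 libraries.

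**Figure D1:**
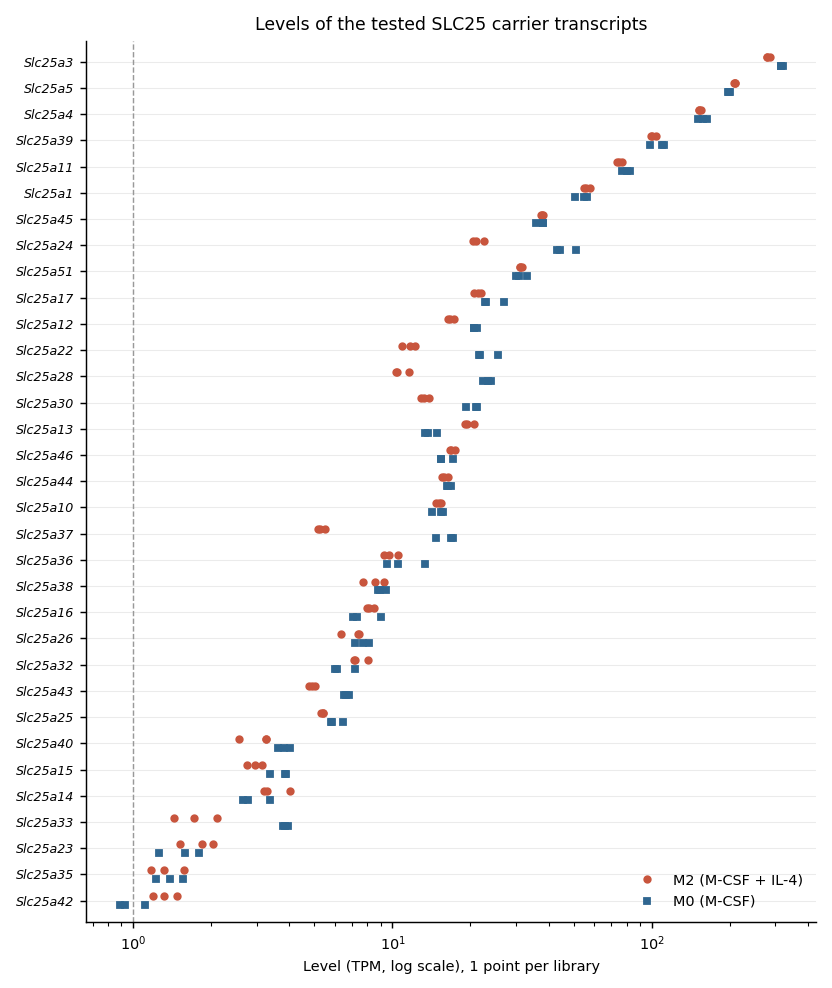
Level of 33 of the 34 tested SLC25 carriers in TPM on a log axis, 1 point per library, M2 (M-CSF with IL-4) above M0 (M-CSF) for each gene, ordered by mean level; the dashed line marks 1 TPM. Slc25a3 leads at 278 to 286 TPM in M2 and 314 to 322 TPM in M0 libraries, and Slc25a42 is lowest at 1.20 to 1.48 TPM in M2 and 0.885 to 1.11 TPM in M0 libraries.

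Of the 34 tested carriers, 3 rose in M2 cells, 11 fell and 20 did not pass the test, where 62.9% of all tested genes passed in either direction. The test was a limma-trend fit over all 11235 tested genes with Benjamini-Hochberg adjusted p under 0.05. The fold changes are M2 over M0 on the scale of log2 of TPM + 1, which understates the change of low genes. The 3 that rose, Slc25a13 and Slc25a42 among them, were 8.82% of those tested, where 17.7% of all tested genes rose. The 11 that fell were Slc25a3, Slc25a12, Slc25a15, Slc25a22, Slc25a24, Slc25a28, Slc25a30, Slc25a33, Slc25a37, Slc25a40 and Slc25a43 (32.4%), where 45.3% of all tested genes fell. In the deposited TPM neither share exceeded that of all tested genes.

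In TPM the comparison as a whole leaned to lower values in M2: the median log2 fold change was -0.15 over all tested genes and -0.08 over the carriers. After median scaling these medians were 0.0029 and 0.08. Under that scaling 12 carriers rose (35.3%), against 28.8% of all tested genes, and 7 fell (20.6%), against 28.2% of all tested genes. The share that rose was thus above that of all tested genes there, and the difference was not tested. The carriers that fell both ways were Slc25a22, Slc25a24, Slc25a28, Slc25a30, Slc25a33, Slc25a37 and Slc25a43, and Slc25a13 and Slc25a42 were among those that rose both ways. The calls on Slc25a3, Slc25a12, Slc25a15 and Slc25a40 were lost. A limma-trend fit on the authors' log2-scale values had 14 of the 34 carriers higher, where 29.5% of all tested genes were, and 7 lower, where 29.6% were. A limma-voom fit on recovered reads had 6 higher, where 20.7% of all tested genes were, and 10 lower, where 41.1% were. The authors' deposited table had 9 carriers higher and 6 lower at an adjusted p under 0.05. Its share over all tested genes was not counted. Slc25a3, Slc25a12, Slc25a15, Slc25a40 and Slc25a43 were not called there (authors' adjusted p = 0.946, 0.131, 0.392, 0.462 and 0.258). Slc25a15, Slc25a40 and Slc25a43 stand there under another transcript.

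Of the calls, 7 (20.6% of the tested carriers) held in the same direction under each of the 14 other settings tried. Slc25a37, Slc25a24, Slc25a28, Slc25a22, Slc25a33 and Slc25a30 fell, and Slc25a13 rose. The share of all tested genes called under every setting was not counted, so these 7 cannot be set against it. Without M0 replicate 2, 7 carriers rose, where 19.7% of all tested genes did, and 13 fell, where 46.6% did; Slc25a40 was the call lost. Without M2 replicate 2, 1 carrier rose, Slc25a13. A log2 fold change of -1 or less was reached by Slc25a37, Slc25a24 and Slc25a28, 3 of 34 (8.82%), and by 4.61% of all tested genes. After median scaling Slc25a37 alone of the tested carriers did, as did 3.3% of all tested genes. No carrier reached 1 or more, as 3.35% of all tested genes did.

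Levels of the groups did not overlap for 14 carriers that were lower in every M2 library, where 49.8% of all tested genes were. They did not overlap for 4 that were higher in every M2 library, where 19.6% were, Slc25a5, Slc25a13 and Slc25a42 among them. Of the 6 carriers with a mean of 50 TPM or more, only Slc25a3 was called. Of the 15 between 10 and 50 TPM, 8 were called, and of the 13 tested below 10 TPM, 5 were. Over all tested genes 62.9% were called, and their share by level was not counted, so no dependence on level can be read here. After median scaling Slc25a1, Slc25a4 and Slc25a5 were called among the 6 most abundant, and Slc25a3 was not.

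**Figure D2:**
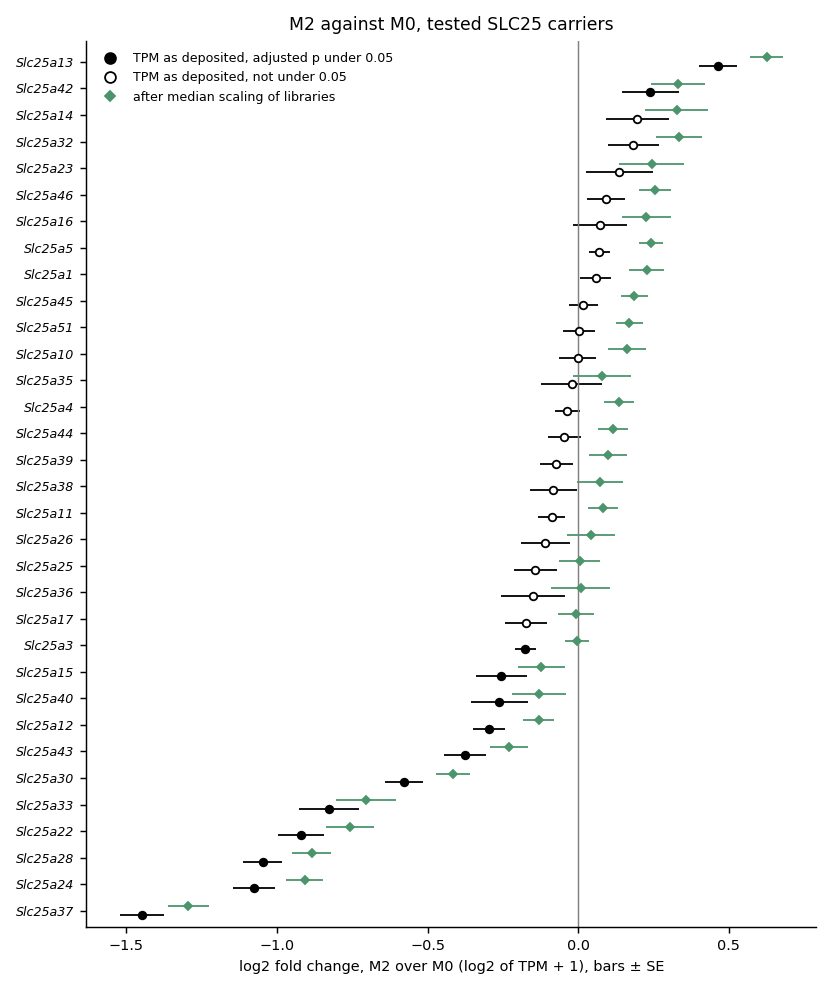
Log2 fold change of M2 over M0 for 33 of the 34 tested carriers, on the scale of log2 of TPM + 1, with bars for the standard error; filled circles passed at an adjusted p under 0.05, open circles did not, and green diamonds give the value after median scaling. The circles run from -1.45 for Slc25a37 to 0.46 for Slc25a13, and the diamonds lie to the right of the circles.

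The promoters of 4 of the carriers called under every setting are shown, so that sequences of carriers that fell can be read beside that of Slc25a13, which rose. They are the RefSeq windows of build GRCm38.p6, 250 bases before to 50 after the start, written 5′ to 3′ on the gene's strand. Capitals mark the E-box CACGTG, the site of basic helix-loop-helix factors.
Slc25a24, chr3:109122899-109123198, plus strand: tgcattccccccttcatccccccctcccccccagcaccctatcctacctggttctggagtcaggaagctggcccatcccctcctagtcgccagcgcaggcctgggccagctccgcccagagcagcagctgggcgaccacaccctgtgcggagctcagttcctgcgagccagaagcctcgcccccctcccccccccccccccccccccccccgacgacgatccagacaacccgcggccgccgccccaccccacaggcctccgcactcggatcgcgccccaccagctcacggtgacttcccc
Slc25a28, chr19:43674832-43675131, minus strand: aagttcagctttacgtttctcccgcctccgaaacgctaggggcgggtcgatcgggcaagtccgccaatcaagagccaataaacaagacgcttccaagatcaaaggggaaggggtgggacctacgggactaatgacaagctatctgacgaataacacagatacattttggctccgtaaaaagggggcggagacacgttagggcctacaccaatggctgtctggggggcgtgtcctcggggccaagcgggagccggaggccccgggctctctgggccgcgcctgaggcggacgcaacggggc
Slc25a33, chr4:149774218-149774517, minus strand: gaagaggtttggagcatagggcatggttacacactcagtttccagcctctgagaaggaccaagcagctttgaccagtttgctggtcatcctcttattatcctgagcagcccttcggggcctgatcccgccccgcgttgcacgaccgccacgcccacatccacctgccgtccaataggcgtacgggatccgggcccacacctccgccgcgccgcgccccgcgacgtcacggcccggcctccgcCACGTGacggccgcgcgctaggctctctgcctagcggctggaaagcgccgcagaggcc
Slc25a13, chr6:6217124-6217423, minus strand: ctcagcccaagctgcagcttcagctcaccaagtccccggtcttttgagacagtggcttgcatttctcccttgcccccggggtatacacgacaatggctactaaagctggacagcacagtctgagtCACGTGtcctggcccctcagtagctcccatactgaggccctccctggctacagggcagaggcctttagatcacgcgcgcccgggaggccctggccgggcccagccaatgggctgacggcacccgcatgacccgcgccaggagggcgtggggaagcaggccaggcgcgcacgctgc

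In these windows the E-box began at base 243 in Slc25a33 and base 126 in Slc25a13, counted from the 5′ end, and no match lay in Slc25a24 or Slc25a28. These letters were thus found both in a carrier that fell and in the carrier that rose. Of the 46 carriers 35 had an entry, 26 of them tested, with 34 windows in all for the tested carriers. The E-box lay in 7 of these 34 windows (20.6%), in Slc25a1, Slc25a13, Slc25a14, Slc25a15, Slc25a33 and Slc25a36. It lay in 7.15% of all 32851 mouse windows of the same length. Overlapping windows of Slc25a14 hold the same E-box, at base 197 and base 67, so that site was counted more than once. The shares are of windows and not of genes, and some carriers had more than 1 window. The palindrome of TTC and GAA with 4 free bases between them, of the type bound by STAT6, the factor that IL-4 activates, lay in 1 of the 34 windows, that of Slc25a25, and in 6.95% of all windows. GCGCA and GCGC with 1 free base between them, the site of nuclear respiratory factor 1, lay in 1, that of Slc25a3, and in 4.6% of all windows. All 3 motifs were searched on both strands; a match is a description of the letters and not a binding site.

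Among the iron and glutathione carriers, 3 of 4 tested fell in M2 cells and none rose. Of all tested genes, 45.3% fell and 17.7% rose. After median scaling 2 of 4 fell, where 28.2% of all tested genes did. The role groups here and below are small, and no test of a group as a whole was run. Slc25a37 (mitoferrin 1) and Slc25a28 (mitoferrin 2) carry iron into the matrix for heme and iron-sulfur cluster synthesis. Slc25a37 (NM_026331, chromosome 14, 69241851 to 69285103, minus strand, mm10, 4 exons) had 5.24, 5.15 and 5.49 TPM in M2 libraries, against 17.0, 16.8 and 14.7 TPM in M0 libraries. The groups lay far apart, with little spread among the M2 libraries. Its mean was 5.29 ± 0.176 TPM in M2 and 16.2 ± 1.29 TPM in M0 cells (SD, n = 3 each), a ratio of 0.327. The log2 fold change was -1.45 (SE 0.074, limma-trend adjusted p = 7.57e-08), -1.29 after median scaling, and the authors' deposited table gives -1.43. This was the largest change among the tested carriers.

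Slc25a28 (NM_145156, chromosome 19, 43663801 to 43674881, minus strand, 4 exons) had 11.6, 10.4 and 10.3 TPM in M2 libraries, against 24.0, 22.4 and 23.3 TPM in M0 libraries. Every M2 library was below every M0 library. The log2 fold change was -1.05 (SE 0.064, limma-trend adjusted p = 2.78e-07), and -0.88 after median scaling. The mitoferrin sum was 15.5 to 16.8 TPM in M2 and 38.0 to 41.1 TPM in M0 libraries. Slc25a28 made up 67.0% ± 1.80 of that sum in M2 and 59.0% ± 2.17 in M0 cells (SD, n = 3 each; exact permutation p = 0.1, two-sided), so the more abundant mitoferrin took a higher share in each M2 library. With 3 libraries against 3, 0.1 is the smallest p the test allows. Exons of Slc25a37 overlap the opposite-strand genes Gm27223 and Gm31748 over 9.13% of their bases, and the strand of the libraries is not stated, so a small part of its reads cannot be told apart from theirs.

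Slc25a39, which carries glutathione into mitochondria, was the fourth most abundant carrier, at 100.5, 104 and 99.1 TPM in M2 libraries, against 110.1, 98.4 and 112 TPM in M0 libraries. The groups overlapped through M0 replicate 2, and the log2 fold change of -0.07 did not pass the test (limma-trend adjusted p = 0.265); it was 0.10 after median scaling. Without M0 replicate 2 it was -0.13 and passed (limma-trend adjusted p = 0.00734). Its relative Slc25a40 had 2.56, 3.26 and 3.26 TPM in M2 libraries, against 3.80, 4.03 and 3.62 TPM in M0 libraries. All M2 values lay below the M0 values, with a log2 fold change of -0.26 (limma-trend adjusted p = 0.0324); after median scaling it was -0.13 and not called (adjusted p = 0.246). The call was also lost when the authors' log2-scale values were fitted (adjusted p = 0.226), by limma-voom (adjusted p = 0.0502), with no filter on low values (adjusted p = 0.0582), and without M0 replicate 1, M0 replicate 2 or M2 replicate 1 (adjusted p = 0.0694, 0.0692 and 0.142). Slc25a39 made up 97.1% ± 0.370 of the sum of both in M2 and 96.5% ± 0.414 in M0 cells (SD, n = 3 each; exact permutation p = 0.2).

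Among the adenine nucleotide and phosphate carriers, 2 of 6 tested fell and none rose, where 45.3% and 17.7% of all tested genes did. After median scaling 1 fell and 2 rose, where 28.2% and 28.8% of all tested genes did. Slc25a24, a calcium-regulated carrier that exchanges ATP-Mg for phosphate, fell most. It had 21.0, 20.5 and 22.5 TPM in M2 libraries, against 44.2, 50.9 and 43.2 TPM in M0 libraries (NM_172685, chromosome 3, 109123149 to 109168409, plus strand, 10 exons). M0 replicate 2 was the highest, and the other M0 libraries were still far above the M2 libraries. The mean was 21.3 ± 1.06 TPM in M2 and 46.1 ± 4.21 TPM in M0 cells (SD, n = 3 each), with a log2 fold change of -1.07 (SE 0.069, limma-trend adjusted p = 4.14e-07), and -0.91 after median scaling.

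The relatives of Slc25a24 in the same exchange, Slc25a25 and Slc25a23, did not pass the test. Slc25a25 had 5.39, 5.38 and 5.30 TPM in M2 libraries, against 6.43, 5.78 and 5.86 TPM in M0 libraries, a log2 fold change of -0.14 (limma-trend adjusted p = 0.108). Its groups did not overlap; it was 0.0042 after median scaling, and -0.17 without M0 replicate 2, where it passed (adjusted p = 0.0476). Slc25a23 had 1.83, 2.03 and 1.51 TPM in M2 libraries, against 1.79, 1.58 and 1.25 TPM in M0 libraries, a log2 fold change of 0.14 (limma-trend adjusted p = 0.302). Its groups overlapped, and it passed on the authors' log2-scale values alone, at 0.24 (adjusted p = 0.0488). Of the summed level of these 3 carriers, Slc25a24 made up 74.9% ± 1.73 in M2 and 85.9% ± 1.54 in M0 cells (SD, n = 3 each). Slc25a23 made up 6.31% ± 1.08 in M2 and 2.87% ± 0.489 in M0 cells (SD, n = 3 each; exact permutation p = 0.1). Exons of Slc25a25 overlap Naif1 on the opposite strand over 11.6% of their bases.

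The phosphate carrier Slc25a3, which supplies the phosphate for ATP synthesis, had 278, 286 and 279 TPM in M2 libraries, against 322, 316 and 314 TPM in M0 libraries. It was lower in every M2 library, with a log2 fold change of -0.18 (SE 0.035, limma-trend adjusted p = 0.00157). After median scaling the fold change was -0.0032 (adjusted p = 0.952), so the call rests on the scale of the deposited TPM.

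The ADP/ATP carriers, which export ATP from the matrix, did not pass the test. Slc25a5 had 209.7, 208 and 209 TPM in M2 libraries, against 200.3, 197 and 199 TPM in M0 libraries. It was higher in every M2 library by a small margin, with a log2 fold change of 0.07 (SE 0.036, limma-trend adjusted p = 0.11), and 0.24 after median scaling, where it passed (adjusted p = 0.000668). It also passed without M0 replicate 2, at 0.06 (adjusted p = 0.042), and by limma-voom, at 0.12 (adjusted p = 0.0241). On the authors' log2-scale values it was 0.23 and passed too (adjusted p = 0.000309). Slc25a4 had 152, 152 and 155 TPM in M2 libraries, against 158, 151 and 163 TPM in M0 libraries, a log2 fold change of -0.04 (limma-trend adjusted p = 0.462). Its groups overlapped, and it turned to 0.13 after median scaling and passed there (adjusted p = 0.0426). Slc25a4 made up 42.3% ± 0.247 of the ADP/ATP carrier sum in M2 and 44.1% ± 0.828 in M0 cells (SD, n = 3 each; exact permutation p = 0.1), lower in each M2 library. The annotation also holds a pseudogene of Slc25a5, Slc25a5-ps, and how the authors' counting placed reads that match both is not given in the sources used here.

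Among the amino acid carriers, 1 of 7 tested rose, 3 fell and 3 did not pass. Of all tested genes, 17.7% rose and 45.3% fell. After median scaling 2 rose and 1 fell, where 28.8% and 28.2% of all tested genes did. The aspartate/glutamate carriers Slc25a13 (citrin) and Slc25a12 (aralar), which serve the malate-aspartate shuttle, moved in opposite directions in the deposited TPM. Slc25a13 had 19.3, 20.6 and 19.0 TPM in M2 libraries, against 13.4, 14.8 and 13.7 TPM in M0 libraries (NM_001177572, chromosome 6, 6041218 to 6217173, minus strand, 18 exons). It was higher in every M2 library, with a log2 fold change of 0.46 (SE 0.063, limma-trend adjusted p = 0.000106), 0.63 after median scaling and 0.66 in the authors' deposited table.

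Slc25a12 had 16.7, 16.4 and 17.3 TPM in M2 libraries, against 20.7, 20.7 and 21.2 TPM in M0 libraries. It was lower in every M2 library, with a log2 fold change of -0.30 (SE 0.053, limma-trend adjusted p = 0.000779), and -0.13 after median scaling, where it was not called (adjusted p = 0.0521). Their sum was 36.0 to 37.0 TPM in M2 and 34.1 to 35.5 TPM in M0 libraries. Slc25a12 made up 46.4%, 44.4% and 47.7% of it in M2 libraries, against 60.7%, 58.3% and 60.7% in M0 libraries. The larger share thus lay with Slc25a13 in each M2 library and with Slc25a12 in each M0 library (mean share of Slc25a12 46.2% ± 1.69 in M2 and 59.9% ± 1.41 in M0 cells, SD, n = 3 each; exact permutation p = 0.1). A share within a library is the same with or without scaling.

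Slc25a22, a carrier that takes glutamate into the matrix, fell. It had 12.3, 10.9 and 11.7 TPM in M2 libraries, against 25.4, 21.6 and 21.7 TPM in M0 libraries (NM_001177576, chromosome 7, 141429749 to 141434594, minus strand, 10 exons). M0 replicate 1 was the highest, and the groups were far apart. The log2 fold change was -0.92 (SE 0.076, limma-trend adjusted p = 2.84e-06), and -0.76 after median scaling. Slc25a15, the ornithine carrier of the urea cycle, had 2.75 to 3.13 TPM in M2 and 3.38 to 3.89 TPM in M0 libraries, a log2 fold change of -0.26 (limma-trend adjusted p = 0.0224). After median scaling it was -0.12 and was not called (adjusted p = 0.209), and the call was also lost without M0 replicate 3, M2 replicate 1 or M2 replicate 2 (adjusted p = 0.0619, 0.0891 and 0.0617). Slc25a38, which takes up glycine for heme synthesis, Slc25a44, a carrier of branched-chain amino acids, and Slc25a45 did not pass, at log2 fold changes of -0.08, -0.05 and 0.02. Slc25a45 passed after median scaling, at 0.19 (adjusted p = 0.00592), and on the authors' log2-scale values, at 0.18 (adjusted p = 0.006).

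**Figure D3:**
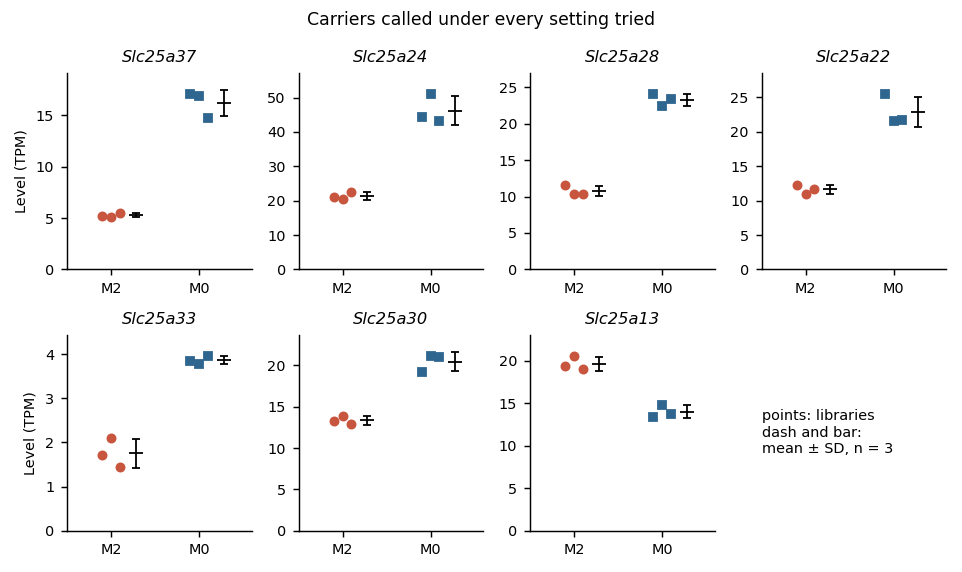
Level in TPM of the 7 carriers called in the same direction under every setting tried, 1 panel per gene, with each M2 library at the left and each M0 library at the right as points and the mean ± SD beside them; each axis starts at 0. In 6 panels the M2 points lie below all M0 points, and for Slc25a13 they lie above, at 19.0 to 20.6 TPM in M2 and 13.4 to 14.8 TPM in M0 libraries.

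Among the carriers of nucleotides, cofactors and vitamins, 2 of 9 tested rose, 1 fell and 6 did not pass. Of all tested genes, 17.7% rose and 45.3% fell. After median scaling 5 rose and 1 fell, where 28.8% and 28.2% of all tested genes did. The carrier that fell was Slc25a33, which brings pyrimidine nucleotides into mitochondria. It had 1.72, 2.10 and 1.44 TPM in M2 libraries, against 3.85, 3.79 and 3.97 TPM in M0 libraries (NM_027460, chromosome 4, 149744036 to 149774267, minus strand, 7 exons). The M2 libraries were all lower and more scattered than the M0 libraries. The log2 fold change was -0.83 (SE 0.099, limma-trend adjusted p = 4.47e-05), and -0.71 after median scaling. It rests on 44 to 110 reads per library, and with a pseudocount of 0.1 in place of 1 it was -1.11, with 5 it was -0.39. Its exons overlap Gm13068 on the opposite strand over 14.9% of their bases, and reads of the overlapping stretch cannot be told apart without strand.

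Slc25a36, the other pyrimidine nucleotide carrier, had 9.29, 9.70 and 10.5 TPM in M2 libraries, against 9.55, 13.3 and 10.5 TPM in M0 libraries. Its groups overlapped, with M0 replicate 2 the highest, and its log2 fold change of -0.15 did not pass (limma-trend adjusted p = 0.242); it was 0.0079 after median scaling. Slc25a33 made up 15.2% ± 2.94 of the sum of both in M2 and 26.1% ± 3.50 in M0 cells (SD, n = 3 each; exact permutation p = 0.1), lower in each M2 library.

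Slc25a42, a carrier of coenzyme A, rose, at 1.20 to 1.48 TPM in M2 and 0.885 to 1.11 TPM in M0 libraries. Its log2 fold change was 0.24 (limma-trend adjusted p = 0.0469), on 40 to 70 reads per library. This call was lost under 8 of the 14 other settings. Those were a pseudocount of 5 (0.08), no filter on low values, the replicate block and the removal of any library but M0 replicate 2.

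The other 6 of these carriers gave log2 fold changes from -0.17 to 0.18 and did not pass. They were Slc25a16, a coenzyme A-related carrier, Slc25a17, the peroxisomal member, Slc25a26, which carries S-adenosylmethionine, Slc25a32, a folate and flavin carrier, Slc25a36 and Slc25a51, which carries NAD. Slc25a17, at -0.17, was nearest to the threshold (limma-trend adjusted p = 0.0515). After median scaling it was -0.0081 (adjusted p = 0.92), while it passed with the replicate block, with a minimum of 50 reads in 3 libraries, and without M0 replicate 1 or M0 replicate 3 (adjusted p = 0.04, 0.0436, 0.0417 and 0.0363). Slc25a32, at 0.18 (limma-trend adjusted p = 0.0832), was 0.33 after median scaling and passed there (adjusted p = 0.00439). Slc25a16 and Slc25a51 also passed after median scaling, at 0.23 and 0.17 (adjusted p = 0.0369 and 0.0105).

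**Figure D4:**
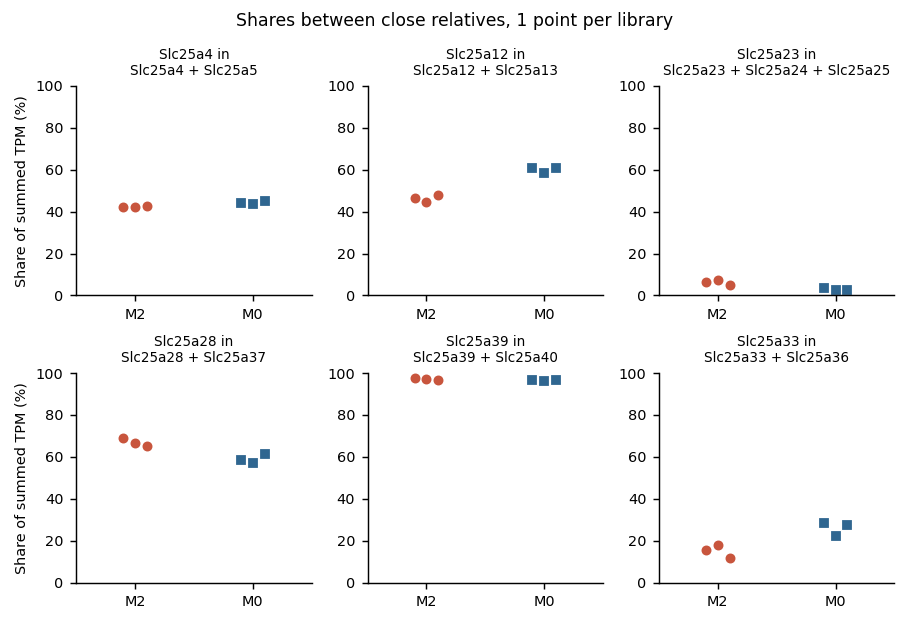
Share of the first-named carrier in the summed TPM of its close relatives, in percent from 0 to 100, 1 panel per set of relatives, with the M2 libraries at the left and the M0 libraries at the right, 1 point per library. Slc25a12 lies at 44.4% to 47.7% in M2 and 58.3% to 60.7% in M0 libraries, while Slc25a39 lies at 96.8% to 97.5% in M2 and 96.1% to 96.9% in M0 libraries.

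Across the 6 sets of relatives, the shares did not overlap between groups in 5, the exception being Slc25a39 in its sum with Slc25a40. Levels of 49.8% of all tested genes were lower in every M2 library and of 19.6% higher. How often shares in other sets of genes do not overlap was not counted, so 5 of 6 cannot be read as particular to carriers. Adjusted over the 6 comparisons, the exact permutation p was 0.12 for these 5 and 0.2 for Slc25a39, so none passed 0.05, which 3 libraries against 3 cannot reach. The differences, M2 minus M0, were -13.7 percentage points for Slc25a12, -11.0 points for Slc25a33 and 7.99 points for Slc25a28. In the set of Slc25a23, Slc25a24 and Slc25a25, the difference was 3.44 points for Slc25a23, which was tested, and -11.0 points for Slc25a24, which was not.

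Of the relatives of uncoupling proteins among the carriers, 1 of 2 tested fell, where 45.3% of all tested genes did. After median scaling 1 fell and 1 rose, where 28.2% and 28.8% of all tested genes did. Slc25a30, named as a kidney carrier of this subgroup, had 13.3, 13.9 and 12.9 TPM in M2 libraries, against 19.1, 21.2 and 21.0 TPM in M0 libraries (NM_026232, chromosome 14, 75761999 to 75787037, minus strand, 10 exons). Every M2 library was below every M0 library, with a log2 fold change of -0.58 (SE 0.063, limma-trend adjusted p = 2.03e-05), and -0.42 after median scaling. Slc25a14 had 3.18 to 4.04 TPM in M2 and 2.65 to 3.36 TPM in M0 libraries, with overlap, and did not pass at 0.20 (limma-trend adjusted p = 0.126). It passed after median scaling, at 0.33 (adjusted p = 0.0249), and on the authors' log2-scale values, at 0.22 (adjusted p = 0.0434).

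None of the 4 tested carriers of di- and tricarboxylates and oxo acids passed, where 62.9% of all tested genes did. After median scaling 1 rose, where 28.8% of all tested genes did. Slc25a1, the citrate carrier that supplies cytosolic acetyl-CoA, had 54.9, 57.9 and 55.8 TPM in M2 libraries, against 55.0, 50.8 and 56.2 TPM in M0 libraries. Its groups overlapped, with a log2 fold change of 0.06 (SE 0.051, limma-trend adjusted p = 0.35); after median scaling it was 0.23 and passed (adjusted p = 0.00848). Slc25a11, the oxoglutarate carrier of the malate-aspartate shuttle, had 76.6, 73.4 and 75.1 TPM in M2 libraries, against 80.3, 77.0 and 82.2 TPM in M0 libraries. It was lower in every M2 library, at a log2 fold change of -0.09 (SE 0.044, limma-trend adjusted p = 0.107), with 0.08 after median scaling. Without M0 replicate 2 it was -0.11 and passed (adjusted p = 0.0138). The dicarboxylate carrier Slc25a10 averaged 15.1 TPM in each group, and Slc25a35, on 32 to 47 reads per library, averaged 1.35 TPM in M2 and 1.39 TPM in M0 cells.

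Slc25a43, a carrier without a settled substrate, fell, with 4.75 to 5.02 TPM in M2 and 6.51 to 6.77 TPM in M0 libraries. Its log2 fold change was -0.38 (limma-trend adjusted p = 0.000803), -0.23 after median scaling, and -0.17 on the authors' log2-scale values, where it was not called (adjusted p = 0.0552). Slc25a46, the outer membrane member known from mitochondrial fission, had 16.7 to 17.5 TPM in M2 and 15.3 to 17.1 TPM in M0 libraries. It did not pass at 0.09 (limma-trend adjusted p = 0.221) but did after median scaling, at 0.25 (adjusted p = 0.00261).

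The 12 carriers that could not be tested were at or near 0 in both groups. Slc25a21, Slc25a41, Slc25a48 and Slc25a54 had no read in any library. Slc25a2, Slc25a18, Slc25a27, Slc25a29, Slc25a31, Slc25a34, Slc25a47 and Slc25a53 had reads, and of these Slc25a29, a carrier of basic amino acids, was highest. Slc25a29 had 0.488, 0.715 and 0.498 TPM in M2 libraries, against 1.00, 0.506 and 0.857 TPM in M0 libraries, with overlap. Slc25a31, the ADP/ATP carrier known from testis, averaged 0.131 TPM in M2 and 0.149 TPM in M0 cells. Slc25a27, an uncoupling relative known from brain, averaged 0.0483 TPM in M2 and 0.0413 TPM in M0 cells.

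The symbol rule left out 5 genes of the carrier type that have other symbols, of which 3 were tested. These 5 summed to 1096 to 1127 TPM in M2 and 890 to 950 TPM in M0 libraries, higher in every M2 library. The lower carrier sum of M2 libraries in the deposited TPM is thus that of the Slc25a symbols alone, and does not hold with these genes added. Ucp2, the uncoupling protein known from macrophages, stood far above every Slc25a gene and rose. It had 981, 954 and 951 TPM in M2 libraries, against 794, 751 and 754 TPM in M0 libraries. The groups did not overlap, with a log2 fold change of 0.33 (SE 0.036, limma-trend adjusted p = 2.17e-05), and 0.50 after median scaling. Mtch2, an outer membrane insertase, fell by 0.14 on the log2 scale (limma-trend adjusted p = 0.0292), but was 0.03 and not called after median scaling, and Mtch1 did not pass.

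Of 18 other tested inner membrane transport genes, 2 rose, 11 fell and 5 did not pass, where 17.7% of all tested genes rose and 45.3% fell. After median scaling 6 rose and 7 fell, where 28.8% and 28.2% of all tested genes did. Mcu, the pore of the mitochondrial calcium uniporter, averaged 4.94 ± 0.331 TPM in M2 and 10.5 ± 0.128 TPM in M0 cells (SD, n = 3 each), a log2 fold change of -0.96 (limma-trend adjusted p = 1.08e-06). The sideroflexin Sfxn5 fell by 0.77 on the log2 scale, and Sfxn1, a serine carrier of the same family, fell by 0.68. All 3 also passed after median scaling. Of the 13 genes that import carrier proteins and insert them in the inner membrane, 1 rose, 6 fell and 6 did not pass, and after median scaling 1 rose and 2 fell. Set against the same shares of all tested genes, the 6 of 13 that fell were near the background. Timm9, a small chaperone that guides carriers between the membranes, fell by 0.62 on the log2 scale and Tomm70a, their receptor at the outer membrane, by 0.48. Timm29, a part of the inner membrane insertion complex, rose by 0.47 (limma-trend adjusted p = 3.13e-05), and these 3 held after median scaling. Tomm20 fell by 0.31 and was not called after scaling.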

How the data were processed

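RNA sequencing libraries of 3 M2 and 3 M0 samples were compared. The submitters' processing notes name mm10 and the tools STAR, DESeq2, bcl2fastq and HOMER (4.11.1); settings are not given in the sources used here. The authors deposited TPM per gene and library, with 1 transcript kept per gene, per the file headers. They also deposited log2-scale values per library, whose transformation is not named, and for each gene a log2 fold change (M2 minus M0 by its sign) with its p-value, raw and adjusted. Deposited TPM sum to 542749 to 543854 in M2 and 548160 to 553186 in M0 libraries. In 3 entries whose annotation held commas, columns were put back in place.

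Multiplied by transcript length, TPM fell on a regular grid in each library, from which reads were recovered; 99.8% to 99.9% of nonzero values were whole within 0.1 read. Reads without molecular identifiers are not independent molecules. No member had more than 1 copy in the annotation.

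The test was two-sided limma-trend with robust moderation (R 4.3.3, limma 3.58.1) on log2 of TPM + 1 for genes with at least 1 TPM in at least 3 libraries, with group as the only term and Benjamini-Hochberg adjustment over all 11235 genes, called under 0.05. It was also run on simulated reads with the same dispersion for every gene and few changed genes. These held no shift of most genes and no outlying library, so they do not bear on the choice of scaling. Median scaling divided libraries by median-ratio factors of 0.941 to 0.945 (M2) and 1.05 to 1.09 (M0). Shares of relatives were compared by exact permutation tests, two-sided. Python 3.11.15, numpy 2.4.6, pandas 2.3.3, scipy 1.17.1 and matplotlib 3.10.9 were used.

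Members, lists and tests were chosen with earlier results of these data known. Values in every library are given for called members whose log2 fold change was 0.4 or more in size, the 6 with the highest mean TPM, and close relatives; from each companion list up to 4 called genes with the largest change, and Ucp2, are named. Marker lists of other cell types held 43 genes, of T and NK cells, B cells, neutrophils, mast cells and basophils, dendritic cells, fibroblasts, endothelial and erythroid cells. Of these lists, T and NK, B, mast and dendritic cell markers had no tested gene. Sums in M2 and M0 libraries were 0.088 to 0.218 and 0.187 to 0.239 TPM for T and NK cells. For B cells they were 0.069 to 0.225 and 0.074 to 0.244 TPM, and for mast cells 0.042 to 0.047 and 0 to 0.13 TPM. Neutrophil markers summed to 25.2 to 31.9 TPM in M2 and 27.7 to 34.8 TPM in M0 libraries, mostly from S100a8 and S100a9. Of the 6 neutrophil markers 3 were tested, with none called. No entry was found for 2 listed symbols, Slc25a52 and Ighm. Exon numbers come from GENCODE M21, joined through RefSeq identifiers (45 of 46 carriers), and coordinates from the deposited table. Counts and sums cover every gene tested, while the values of 1 carrier and 1 companion gene are not reported here.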

Additional observations from a re-analysis of the deposited data

How the results depend on the processing

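In TPM 3 carriers rose and 11 fell; 12 and 7 did after median scaling, 14 and 7 by limma-trend on the authors' log2-scale values, and 6 rose by limma-voom on recovered reads. Leaving out 1 library gave 1 to 7 that rose (7 without M0 replicate 2, 1 without M2 replicate 2) and 9 to 13 that fell. Over all 11235 tested genes it gave 1743 to 2217 that rose and 4457 to 5239 that fell. Of 44 tested companion genes, 4 rose and 24 fell in TPM, and 10 and 13 did after median scaling. On the authors' values 11 rose and 15 fell, and with 1 library left out 3 to 4 and 19 to 27 did. Over all 11235 tested genes, 1983 rose (17.7%) and 5088 fell (45.3%) in TPM. After median scaling 3234 (28.8%) and 3163 (28.2%) did, and on the authors' values 3318 (29.5%) and 3323 (29.6%).

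The log2 fold changes of 10 carriers that had not passed turned positive with median scaling and on the authors' values: Slc25a4 (0.13 by each), Slc25a10 (0.16 and 0.15), Slc25a11 (0.082 and 0.077), Slc25a25 (0.0042 and 0.0024), Slc25a26 (0.0425 and 0.0364), Slc25a35 (0.0775 and 0.0558), Slc25a36 (0.0079 and 0.0060), Slc25a38 (0.0722 and 0.0628), Slc25a39 (0.0986 and 0.0925) and Slc25a44 (0.12 and 0.11). Mtch2 (0.0321 and 0.0290) and Mdh2 (0.0638 and 0.0592) did so too. By limma-voom, Slc25a4 was 0.0144, Slc25a10 0.0497 and Slc25a35 0.0162. With 1 library left out, Slc25a10 ranged from -0.041 to 0.0245, Slc25a35 from -0.0891 to 0.0337, Slc25a45 from -0.0136 to 0.0331 and Slc25a51 from -0.0258 to 0.0417. The cause was not tested beyond the scaling itself, which moves the median of all genes from -0.15 to 0.0029. The other pseudocounts and filters turned no carrier's direction, and no share difference turned with 1 library left out.

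The labels name no pairing of libraries, and deviations from the group means correlated at 0.005, -0.0049 and -0.043 between libraries of the same replicate number. With 3 libraries a group and M0 replicate 2 apart from the others, these values cannot show that the libraries were unpaired. With the replicate block 2 carriers rose and 12 fell, where 1953 and 4963 of all 11235 tested genes did. With 3 libraries a group, carriers under about 2 TPM rest on few reads, and a call missed there does not show that levels are alike.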

Other observations

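Values are given for the outer membrane channels and for enzymes that work with the carboxylate and aspartate carriers. Over all tested genes 17.7% rose and 45.3% fell in TPM, and 28.8% and 28.2% did after median scaling. Of the 3 channels of the outer membrane, through which carrier substrates pass, 2 fell. Vdac3 averaged 26.8 ± 1.41 TPM in M2 and 36.8 ± 2.67 TPM in M0 cells (SD, n = 3 each), a log2 fold change of -0.44 (limma-trend adjusted p = 0.000178). Vdac2 averaged 155 ± 2.16 TPM in M2 and 198 ± 4.21 TPM in M0 cells (SD, n = 3 each), a log2 fold change of -0.35 (limma-trend adjusted p = 2e-05). Both held after median scaling, and Vdac1 did not pass.

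Of the 7 enzymes of the malate-aspartate and citrate shuttles, 4 fell and none rose; after median scaling 2 fell and 1 rose. Me1, which makes NADPH from malate in the cytosol, averaged 3.51 ± 0.140 TPM in M2 and 5.69 ± 0.354 TPM in M0 cells (SD, n = 3 each), a log2 fold change of -0.57 (limma-trend adjusted p = 0.000108). Got2, the mitochondrial aspartate aminotransferase, averaged 25.1 ± 0.928 TPM in M2 and 36.3 ± 0.661 TPM in M0 cells (SD, n = 3 each), a log2 fold change of -0.51 (limma-trend adjusted p = 1.02e-05), and both remained called after median scaling. Citrate synthase, Cs, fell by 0.17 on the log2 scale and Mdh2, the mitochondrial malate dehydrogenase, by 0.11. Neither was called after median scaling.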
